A study of Mus musculus with 24 samples.

Results

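The early growth response genes Egr1, Egr2, Egr3 and Egr4 were followed through every peak of histone H3 lysine 27 acetylation (H3K27ac) that the deposited peak table names for 1 of them. Of the 144154 peaks in the table, 37 carried such a name: 6 for Egr1, 5 for Egr2, 21 for Egr3 and 5 for Egr4. All 37 passed the filter on low counts. By the chromatin state given in the table, 21 lay in active enhancers, 9 in strong promoters and 7 in a state named control. A start-site peak is one with an edge within 1000 bp of the transcription start site (TSS), and 7 of the 37 were such peaks while 30 lay farther away.

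H3K27ac marks active promoters and enhancers, and it was measured by chromatin immunoprecipitation sequencing (ChIP-seq) of nuclei sorted for the neuronal protein NeuN from the dentate gyrus, the hippocampal field where granule neurons lie. The sample titles name the hippocampus and the source labels the dentate gyrus. All mice were C57BL/6J males aged 12 weeks, and no label names a transgene. The HDACi-CFC group received the class I histone deacetylase inhibitor CI-994 at 30 mg/kg into the peritoneum 1 h before contextual fear conditioning (CFC), in which 2 foot shocks (0.2 mA, 1 s each) came after 3 min in a chamber. The HDACi-Context group received the same drug and spent as long in the chamber without shock. The Veh-CFC and Veh-Context groups received the solvent alone, a saline with dimethyl sulfoxide and Kolliphor, and then the same pair of protocols. Mice were killed 1 h after the session. Each group had 3 libraries, and no label says whether a library came from 1 mouse or from pooled mice, so the p-values below measure the spread between these libraries. Cage mates shared a protocol, and cage and shock cannot be told apart where no label gives the cage. All groups were injected and placed in the chamber, so the Context groups are no home-cage baseline.

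EGR proteins are zinc-finger transcription factors that bind GC-rich DNA. Their genes are immediate early genes: neuronal activity induces them through preformed factors, among them serum response factor with its ternary complex partners at CArG boxes and CREB at cAMP response elements, without the need for new protein. Egr1, also called Zif268, is widely used as a marker of recently active neurons and is required for lasting plasticity in the dentate gyrus of mice. Egr2, also called Krox20, is best known for hindbrain and Schwann cell development, Egr3 for muscle spindle development and synaptic plasticity, and Egr4 for male fertility in mice. The corepressors Nab1 and Nab2 bind EGR1, EGR2 and EGR3 and limit their activity.

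The sequence before a start site is shown for the 2 members for which a promoter was found in the RefSeq table of the build GRCm38.p6. The peak over the Egr2 start and the Egr4 peak nearest to its start were called in opposite directions with shock. Whether the sequences bear on that was not tested. RefSeq held 5 promoter windows for Egr2 and 1 for Egr4, and 1 is shown for each. Each stretch is the 250 bases that end just before the start site used in the peak table, read 5′ to 3′ on the strand of the gene. Capitals mark matches to a CArG box (CC, then 6 A or T, then GG) and to TGACG, the core of a cAMP response element, searched on both strands, where CGTCA is the reverse strand of TGACG.
Egr2, chr10:67537619-67537868, plus strand: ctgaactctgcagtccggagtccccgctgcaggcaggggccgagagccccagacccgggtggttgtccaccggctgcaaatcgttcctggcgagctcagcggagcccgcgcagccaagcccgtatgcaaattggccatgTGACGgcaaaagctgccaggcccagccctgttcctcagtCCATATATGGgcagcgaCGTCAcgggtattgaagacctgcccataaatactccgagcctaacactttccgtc
Egr4, chr6:85513590-85513839, minus strand: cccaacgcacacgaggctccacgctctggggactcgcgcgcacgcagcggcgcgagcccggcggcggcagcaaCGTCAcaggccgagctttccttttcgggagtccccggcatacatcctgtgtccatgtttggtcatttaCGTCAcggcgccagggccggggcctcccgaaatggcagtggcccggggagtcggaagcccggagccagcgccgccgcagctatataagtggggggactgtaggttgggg
The Egr2 stretch held TGACG from 111 bases before the start, the CArG box CCATATATGG from 72 bases before it and CGTCA from 55 bases before it. In the Egr4 stretch CGTCA stood from 177 and from 109 bases before the start, and no CArG box was found. Of the Egr2 windows not shown, that before the start at 67537566 held the CArG box CCTTTTTTGG. The window before the start at 67535499 held no match. A CArG box was present in 1.48% and TGACG on either strand in 17.9% of 32536 promoter windows of 250 bp. The EGR motif GCGNGGGCG, present in 4.74% of those windows, and the AP-1 motif TGANTCA, present in 6.73%, were not found in either stretch. These matches describe letters and show no binding. The last 70 bases of the Egr2 stretch lay under a peak named for Egr2, and none of the Egr4 stretch lay under a peak named for Egr4. Peaks named for other genes were not looked for in these stretches.

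Libraries held between 6639158 and 16734757 reads in peaks, of which the EGR peaks took 0.0247% to 0.0363%. The share of a library's reads in start-site peaks of all genes was 24.9% to 26.7% in the 6 CFC libraries and 18.3% to 22.5% in the 6 Context libraries. Start-site signal was present for all 5 pan-neuronal markers and all 8 granule neuron markers, but also for all 6 oligodendrocyte markers. So it was for 4 of 5 astrocyte markers and 2 of 5 endothelial and mural markers. The summed level of the oligodendrocyte markers was 175.6 to 197.8 CPM (reads scaled to a common library size) in HDACi-CFC libraries, 92.6 to 106.4 in HDACi-Context libraries, 169.5 to 214.0 in Veh-CFC libraries and 130.1 to 143.7 in Veh-Context libraries. The neuronal sum moved in the same order, with 587.1 to 634.5, 354.8 to 394.6, 580.6 to 645.7 and 478.6 to 546.8 CPM in those groups. Granule neuron markers summed to 395.8 to 513.7, 298.9 to 371.6, 463.8 to 559.9 and 375.5 to 424.0 CPM in those groups. For astrocyte markers the sums were 49.1 to 53.3, 38.2 to 43.2, 49.0 to 50.8 and 39.0 to 45.8 CPM. For endothelial and mural markers they were 15.8 to 17.2, 8.43 to 9.80, 11.6 to 17.3 and 10.1 to 10.9 CPM. Markers of microglia (4 of 6 measured) summed to 24.1 to 26.8, 22.7 to 24.6, 29.3 to 41.1 and 26.0 to 30.4 CPM in those groups, and Aif1 and C1qa had no start-site peak. Of the interneuron markers only 1 of 6 had such a peak, with Gad2, Slc32a1, Sst, Pvalb and Vip at none. The part of these shifts in the EGR results was not tested. Nor can fewer nuclei that carry the mark and less of the mark per nucleus be told apart in such libraries.

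More EGR peaks were called with shock than with the drug. With the inhibitor, 22 of the 37 peaks were called between HDACi-CFC and HDACi-Context, 18 higher and 4 lower in HDACi-CFC, at an adjusted p under 0.05 in edgeR's quasi-likelihood test, against 37.9% of all peaks tested (20.2% higher and 17.8% lower). In vehicle mice 5 were called between Veh-CFC and Veh-Context, 4 higher and 1 lower, where 7.15% of all peaks were called (4.41% higher and 2.74% lower). Averaged over both drug states, 20 were called with shock, 15 higher and 5 lower, where the background was 41.1% (21.4% higher and 19.7% lower). The median log2 change of the 37 peaks with shock was 0.52 with the inhibitor and 0.21 with vehicle, where the medians over all 144014 peaks were -0.05 and -0.00. Values of CFC and Context libraries did not overlap at 26 EGR peaks with the inhibitor, where 48.9% of all peaks did not overlap, and at 11 with vehicle, where that share was 25.3%. All 6 CFC libraries lay apart from all 6 Context libraries at 8 EGR peaks, 6 higher and 2 lower in CFC, where this held for 10.4% of all peaks.

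Of the 9 EGR peaks in strong promoters, 6 were called higher and 1 lower in HDACi-CFC than in HDACi-Context libraries, where 44.9% of all peaks of that state were called higher and 1.63% lower. In Veh-CFC against Veh-Context libraries 4 of the 9 were called higher and 0 lower, where the shares were 12.6% and 0.532%. Of the 21 in active enhancers, 9 were called higher and 3 lower with the inhibitor (28.7% and 12.1% of all such peaks) and 0 higher and 1 lower with vehicle (5.26% and 3.15%). Of the 7 in the state named control, 3 were called higher and 0 lower with the inhibitor (10.3% and 27.1% of all such peaks) and 0 either way with vehicle (2.35% higher and 3.52% lower). No test compared the states. Of the 7 start-site peaks, Egr1 and Egr3 had all of theirs called higher with the inhibitor, Egr2 had 1 of 2, and that of Egr4 was called lower. Of start-site peaks of all genes, 45.3% were called higher and 2.02% lower in that comparison.

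The 11 peaks called in none of the 7 comparisons, among them the Egr3 peak over the 3′ UTR, had log2 changes with shock of -0.76 to 0.87 in inhibitor mice and of -0.92 to 0.51 in vehicle mice.

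**Figure D1:**
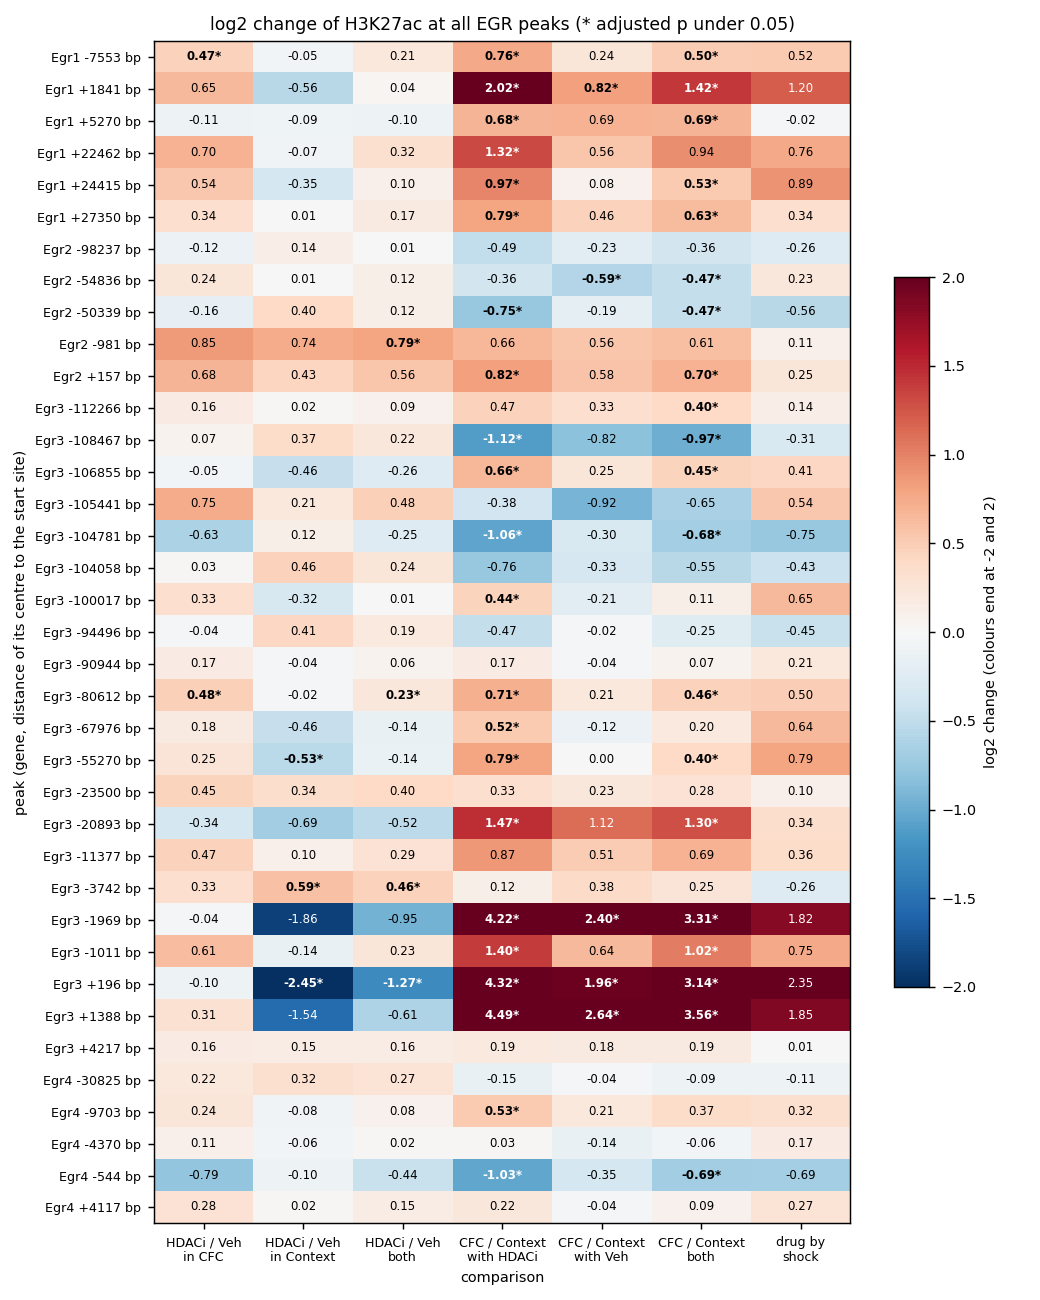
Log2 change of H3K27ac at all 37 EGR peaks (rows, named by gene and distance of the peak centre to the start site in bp) in 7 comparisons (columns; the last is the drug by shock interaction), with an asterisk at an adjusted p under 0.05. The rows of Egr1 and the 4 rows of Egr3 from -1969 to +1388 bp are red in the column of CFC against Context with HDACi, with changes of up to 4.49.

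Egr3 had the largest changes of the family, in a cluster of peaks around its start site on chromosome 14 (coordinates in mm10). The table measures the peak in exon 2 and the peak over the 3′ UTR from a start 478 bp downstream of that used for the other Egr3 peaks. The exon 2 peak (chr14:70078855-70079511), centred 1388 bp downstream of that second start and 1866 bp downstream of the first, held 69, 30 and 65 reads in HDACi-CFC libraries, 4, 4 and 1 in HDACi-Context libraries, 43, 25 and 21 in Veh-CFC libraries and 7, 1 and 12 in Veh-Context libraries. In levels scaled to library size these were 5.00, 3.12 and 5.46 CPM in HDACi-CFC libraries, 0.278, 0.232 and 0.0680 in HDACi-Context libraries, 5.52, 2.65 and 2.97 in Veh-CFC libraries and 0.523, 0.147 and 0.882 in Veh-Context libraries. All 6 CFC libraries lay above all 6 Context libraries. The log2 change with shock was 4.49 ± 0.42 with the inhibitor (adjusted p = 9.12e-11), 2.64 ± 0.40 with vehicle (adjusted p = 0.000147) and 3.56 ± 0.29 over both (adjusted p = 2.35e-12; errors are SE). The change over both stood at place 36 from the top among 144014 peaks.

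The peak over the Egr3 start itself (chr14:70077187-70077840, centred 196 bp downstream) held 36, 18 and 30 reads in HDACi-CFC libraries, 2, 2 and 1 in HDACi-Context libraries, 31, 19 and 11 in Veh-CFC libraries and 3, 8 and 10 in Veh-Context libraries. Its levels were 2.61, 1.87 and 2.52 CPM in HDACi-CFC libraries, 0.139, 0.116 and 0.0680 in HDACi-Context libraries, 3.98, 2.02 and 1.56 in Veh-CFC libraries and 0.224, 1.18 and 0.735 in Veh-Context libraries. Again no CFC library was as low as the highest Context library. Shock changed the peak by 4.32 ± 0.55 with the inhibitor (adjusted p = 4.91e-08), by 1.96 ± 0.45 with vehicle (adjusted p = 0.00643) and by 3.14 ± 0.36 over both (adjusted p = 3.34e-09; place 95). It was also the only start-site peak of the family called with the drug in Context mice, where all 3 HDACi-Context libraries lay below all 3 Veh-Context libraries and the change was -2.45 ± 0.69 (adjusted p = 0.0184). Of start-site peaks of all genes, 21.3% were called lower there. The vehicle call was lost without Veh-CFC replicate 1 (1.49, adjusted p = 0.127) or Veh-Context replicate 1 (1.47, adjusted p = 0.0833). The drug call was lost without HDACi-Context replicate 2 or 3 or Veh-Context replicate 2 or 3, with adjusted p between 0.0685 and 0.112.

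A peak of 255 bp centred 1969 bp upstream (chr14:70075221-70075475) held 18, 16 and 15 reads in HDACi-CFC libraries, 1, 1 and 1 in HDACi-Context libraries, 20, 11 and 4 in Veh-CFC libraries and 2, 1 and 6 in Veh-Context libraries. Scaled to library size it held 1.304, 1.66 and 1.26 CPM in HDACi-CFC libraries, 0.0695, 0.0580 and 0.0680 in HDACi-Context libraries, 2.57, 1.17 and 0.566 in Veh-CFC libraries and 0.149, 0.147 and 0.441 in Veh-Context libraries, and the 6 CFC libraries again lay above the 6 Context libraries. Its changes with shock were 4.22 ± 0.72 with the inhibitor (adjusted p = 1.18e-05), 2.40 ± 0.63 with vehicle (adjusted p = 0.0161) and 3.31 ± 0.48 over both (adjusted p = 5.55e-07). The table holds no value under 1, so the HDACi-Context libraries may be empty at this peak and its fitted changes set no bound. With all values of 1 read as 0, the change with the inhibitor was 7.04, and those of the peak over the start and of the exon 2 peak were 4.61 and 4.65. The vehicle call was lost without Veh-CFC replicate 1 (adjusted p = 0.221) or Veh-Context replicate 1 (adjusted p = 0.106), and with loess offsets (adjusted p = 0.0976).

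The rest of the Egr3 start region moved less. The peak centred 1011 bp upstream (chr14:70075788-70076825) held 5.43, 4.89 and 5.88 CPM in HDACi-CFC libraries, 2.15, 2.03 and 1.97 in HDACi-Context libraries, 5.27, 3.08 and 2.27 in Veh-CFC libraries and 1.57, 2.65 and 2.72 in Veh-Context libraries. The HDACi-CFC libraries stood apart from the HDACi-Context libraries, while those of the vehicle groups overlapped. Its log2 change was 1.40 ± 0.24 with the inhibitor (adjusted p = 1.3e-05) and 0.64 ± 0.28 with vehicle (adjusted p = 0.145). The peak over the 3′ UTR (chr14:70080138-70083887), with 10.2 to 15.5 CPM in the 12 libraries, was called in none of the 7 comparisons, and its changes with shock were 0.19 ± 0.14 with the inhibitor and 0.18 ± 0.16 with vehicle. Along Egr3 the changes with the inhibitor ran between 0.19 over the 3′ end and 4.49 in exon 2. Per kb of peak, the 3′ peak held a mean level of 3.66 CPM in HDACi-CFC, 3.21 in HDACi-Context, 3.30 in Veh-CFC and 2.92 in Veh-Context libraries. On the same scale the exon 2 peak held 6.89, 0.293, 5.66 and 0.787 CPM and the start peak 3.57, 0.165, 3.85 and 1.09 CPM in those groups. Both were thus less dense than the 3′ peak in the Context groups, and in the CFC groups the exon 2 peak had the highest mean of the 3.

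**Figure D2:**
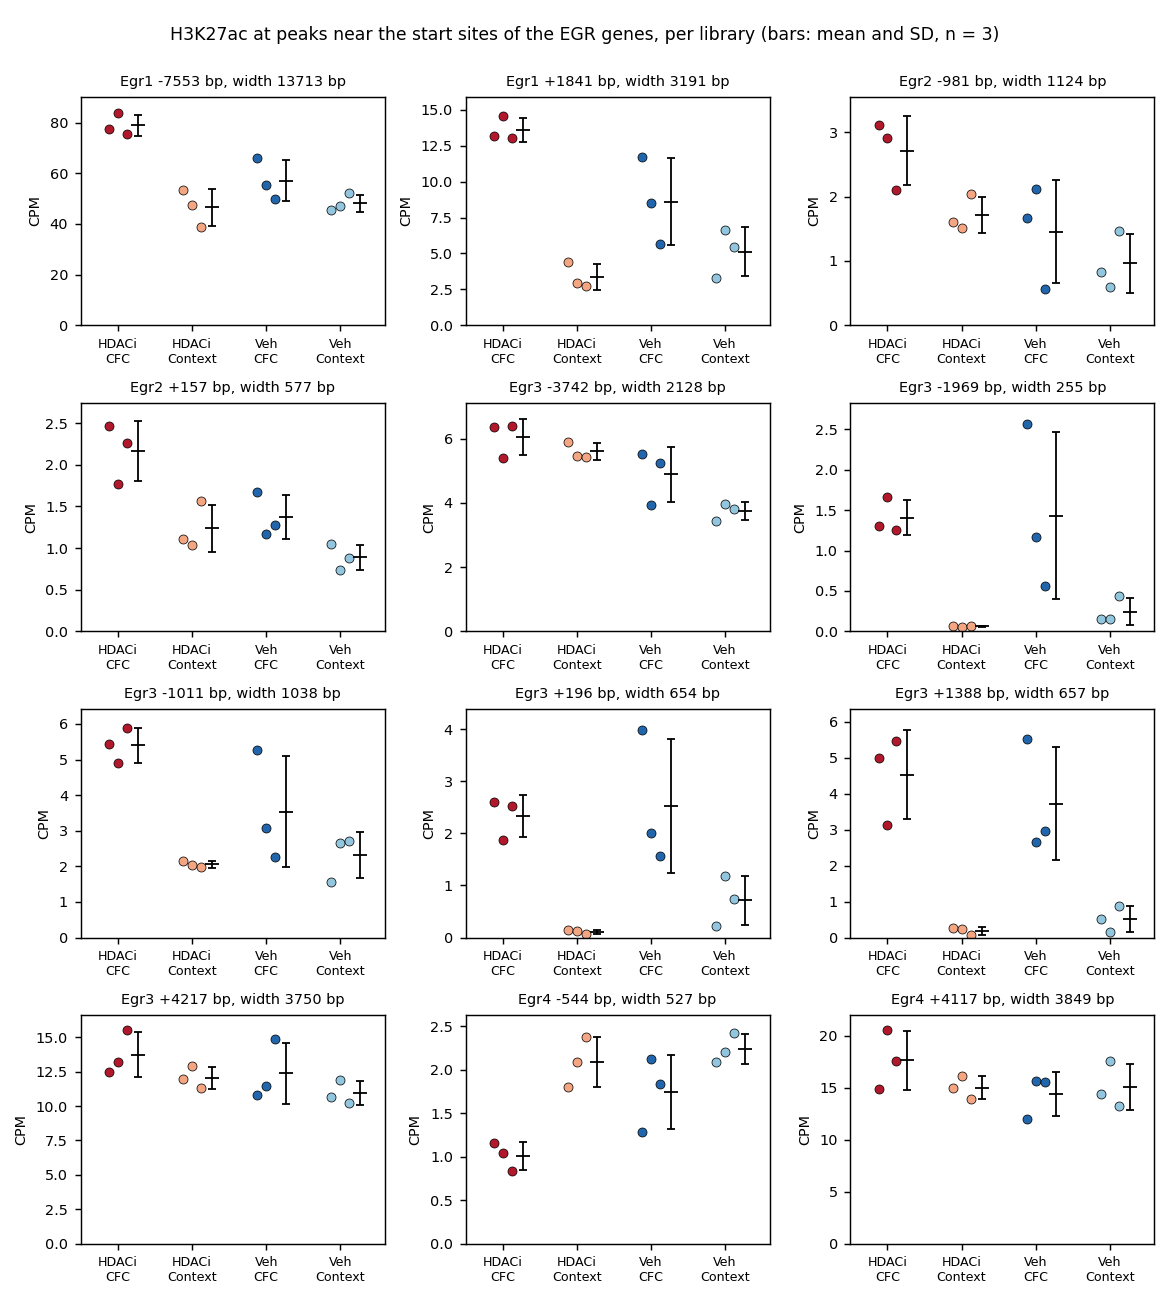
H3K27ac in CPM (vertical axes, each from 0) at the 12 EGR peaks nearest to the start sites, with 1 point per library in 4 groups of 3 and bars for mean and SD. At the Egr3 peaks at -1969, +196 and +1388 bp all CFC points lie above all Context points, and at the Egr4 peak at -544 bp the 3 HDACi-CFC points, at 0.840 to 1.16 CPM, are the lowest of the 12.

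Of the 21 Egr3 peaks, 14 lay in introns of Pebp4, a neighbouring gene that encodes a phosphatidylethanolamine-binding protein, and carry the name of Egr3 in the table as the assigned start site; whether they act on Egr3 was not tested. The largest of them, 14160 bp wide and centred 80612 bp upstream (chr14:69989626-70003785), held 71.2, 79.98 and 76.7 CPM in HDACi-CFC libraries, 48.9, 47.5 and 42.4 in HDACi-Context libraries, 59.1, 55.1 and 48.7 in Veh-CFC libraries and 45.5, 45.2 and 49.7 in Veh-Context libraries. The 3 HDACi-CFC libraries were the highest of the 12. It was called higher with shock in inhibitor mice (0.71 ± 0.11; adjusted p = 1.59e-06) and with the drug in CFC mice (0.48 ± 0.11; adjusted p = 0.0175), and its change with shock in vehicle mice was 0.21 ± 0.11 (adjusted p = 0.235). The drug call was lost without HDACi-CFC replicate 2 or 3 or Veh-CFC replicate 2 or 3, with adjusted p between 0.0963 and 0.114.

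At the peak 55270 bp upstream (chr14:70019727-70024368) the levels were 23.8, 26.8 and 24.0 CPM in HDACi-CFC libraries, 16.3, 13.5 and 13.2 in HDACi-Context libraries, 20.8, 23.8 and 17.6 in Veh-CFC libraries and 18.2, 20.5 and 23.5 in Veh-Context libraries. The 3 HDACi-Context libraries were the lowest of the 12. The peak was lower with the drug in Context mice (-0.53 ± 0.13; adjusted p = 0.00714) and higher with shock in inhibitor mice (0.79 ± 0.13; adjusted p = 8.29e-06), while shock in vehicle mice changed it by 0.00 ± 0.14. The drug call was lost without HDACi-Context replicate 2 (adjusted p = 0.0612) or Veh-Context replicate 3 (adjusted p = 0.125). Its drug by shock interaction, 0.79 ± 0.19, had the lowest adjusted p of the family for that term, 0.0784.

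Smaller distal peaks of Egr3 moved both ways. The peak 20893 bp upstream (chr14:70056155-70056694) held 1.23, 1.56 and 1.43 CPM in HDACi-CFC libraries, 0.765, 0.464 and 0.272 in HDACi-Context libraries, 1.284, 1.80 and 2.27 in Veh-CFC libraries and 0.971, 1.03 and 0.514 in Veh-Context libraries, with every CFC library above every Context library. It rose with shock by 1.47 ± 0.45 with the inhibitor (adjusted p = 0.00877), a call lost without HDACi-Context replicate 3 (adjusted p = 0.0556), and by 1.30 ± 0.32 over both. The peak 106855 bp upstream (chr14:69969415-69971510) held 6.52, 8.22 and 8.82 CPM in HDACi-CFC libraries, 4.17, 6.14 and 4.42 in HDACi-Context libraries, 7.71, 8.48 and 8.07 in Veh-CFC libraries and 6.94, 7.36 and 6.32 in Veh-Context libraries. CFC and Context libraries did not overlap within either drug state, and the change with shock was 0.66 ± 0.17 with the inhibitor (adjusted p = 0.00289).

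Losses flanked that gain on both sides. At the peak 108467 bp upstream (chr14:69968533-69969167) the levels were 1.09, 1.35 and 1.34 CPM in HDACi-CFC libraries, 1.88, 3.59 and 2.65 in HDACi-Context libraries, 0.771, 1.38 and 1.42 in Veh-CFC libraries and 2.61, 2.21 and 1.54 in Veh-Context libraries. All 6 CFC libraries lay below all 6 Context libraries, with a change over both of -0.97 ± 0.24 (adjusted p = 0.00116) and of -1.12 ± 0.31 with the inhibitor (adjusted p = 0.00393; adjusted p = 0.0666 without HDACi-Context replicate 2). The peak 104781 bp upstream (chr14:69972190-69972883) held 1.09, 1.25 and 0.504 CPM in HDACi-CFC libraries, 2.43, 2.20 and 1.22 in HDACi-Context libraries, 1.54, 1.06 and 1.84 in Veh-CFC libraries and 1.94, 2.65 and 1.10 in Veh-Context libraries. Its HDACi-CFC and HDACi-Context libraries overlapped slightly, and the change with shock was -1.06 ± 0.37 with the inhibitor (adjusted p = 0.0218), lost without HDACi-CFC replicate 3 or HDACi-Context replicate 1 or 2 and in DESeq2 (adjusted p between 0.0607 and 0.149). Of the other Egr3 peaks, those 100017 and 67976 bp upstream were called higher with shock in inhibitor mice (0.44 and 0.52), that 112266 bp upstream was called higher with shock over both (0.40), and that 3742 bp upstream was called higher with the drug in Context mice (0.59) and over both (0.46). Among 18 peaks of the neighbouring genes 9930012K11Rik, Bin3, Ccar2 and Pdlim2 within 100 kb, 11 were called higher and 0 lower with shock in inhibitor mice, with a median change of 0.63 and a highest of 3.07. In vehicle mice 4 of the 18 were called higher and 0 lower, with a median of 0.56, so gains with shock were also present at genes beside Egr3.

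**Figure D3:**
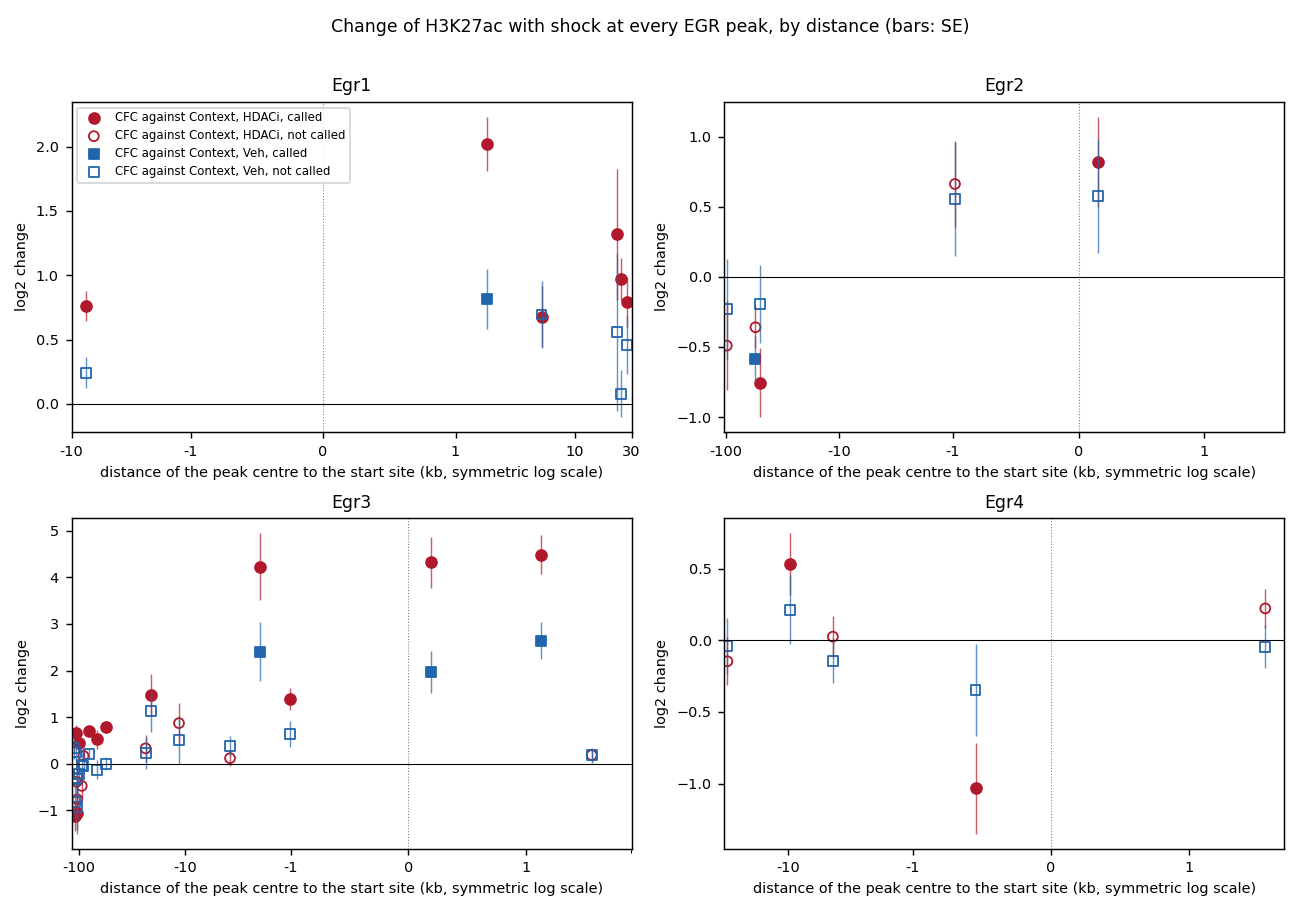
Log2 change of H3K27ac with shock (vertical axes, bars are SE) at every EGR peak against the distance of its centre to the start site (horizontal axes, kb, symmetric log scale), for CFC against Context with HDACi (red circles) and with vehicle (blue squares), with filled symbols where the adjusted p was under 0.05. The changes above 4 belong to Egr3 peaks within 2 kb of the start, and the Egr4 peak 544 bp upstream lies below 0 at -1.03.

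Egr1, on chromosome 18, gained H3K27ac at all 6 of its peaks when HDACi-CFC was set against HDACi-Context, by 0.68 to 2.02 on the log2 scale. The start site lay in a gap of 942 bp between its upstream and its downstream peak. The upstream peak, 13713 bp wide and centred 7553 bp upstream (chr18:34846798-34860510), held 77.4, 83.7 and 75.5 CPM in HDACi-CFC libraries, 53.3, 47.4 and 38.8 in HDACi-Context libraries, 65.9, 55.2 and 50.0 in Veh-CFC libraries and 45.7, 47.0 and 52.0 in Veh-Context libraries. The 3 HDACi-CFC libraries were the highest of the 12. The peak rose with shock in inhibitor mice (0.76 ± 0.12; adjusted p = 1.71e-06) and with the drug in CFC mice (0.47 ± 0.12; adjusted p = 0.0352), and its change with shock in vehicle mice was 0.24 ± 0.12 (adjusted p = 0.206). The drug call was lost without any 1 HDACi-CFC library, HDACi-Context replicate 2, Veh-CFC replicate 2 or Veh-CFC replicate 3, and with loess offsets, with adjusted p between 0.0553 and 0.191.

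The downstream peak (chr18:34861453-34864643, centred 1841 bp downstream) covers exon 2, which encodes the zinc fingers, and held 13.2, 14.6 and 13.0 CPM in HDACi-CFC libraries, 4.38, 2.96 and 2.72 in HDACi-Context libraries, 11.7, 8.48 and 5.66 in Veh-CFC libraries and 3.29, 6.62 and 5.44 in Veh-Context libraries. HDACi-CFC libraries were the highest and did not overlap with any other group, while Veh-CFC and Veh-Context libraries overlapped. Shock changed it by 2.02 ± 0.21 with the inhibitor (adjusted p = 1.3e-08), by 0.82 ± 0.23 with vehicle (adjusted p = 0.0294) and by 1.42 ± 0.16 over both (adjusted p = 2.72e-08). The difference between the 2 drug states was 1.20 ± 0.32 (adjusted p = 0.11). The vehicle call was lost without Veh-CFC replicate 1 (adjusted p = 0.237), Veh-CFC replicate 2 (adjusted p = 0.0722) or Veh-Context replicate 1 (adjusted p = 0.197).

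The other 4 Egr1 peaks lay farther downstream, between genes. The peak 5270 bp downstream (chr18:34865405-34867550) held 5.51, 3.95 and 4.71 CPM in HDACi-CFC libraries, 3.48, 2.20 and 3.33 in HDACi-Context libraries, 7.32, 3.92 and 4.25 in Veh-CFC libraries and 2.24, 4.42 and 3.31 in Veh-Context libraries. That at 22462 bp (chr18:34883458-34883880), with 3 to 19 reads a library, held 1.38, 1.04 and 1.18 CPM in HDACi-CFC libraries, 0.834, 0.348 and 0.272 in HDACi-Context libraries, 1.16, 0.636 and 0.425 in Veh-CFC libraries and 0.373, 0.442 and 0.661 in Veh-Context libraries. The HDACi-CFC libraries stood above the HDACi-Context libraries at both, with changes of 0.68 ± 0.24 (adjusted p = 0.0208) and 1.32 ± 0.51 (adjusted p = 0.0363). Both calls were lost with library totals, in DESeq2 and without HDACi-CFC replicate 1, HDACi-CFC replicate 3 or HDACi-Context replicate 2. The call at 22462 bp was also lost without HDACi-CFC replicate 2 or HDACi-Context replicate 3 and with loess offsets, and the highest adjusted p of the pair was 0.389. Over both drug states the peak at 5270 bp was called higher with shock, by 0.69 (adjusted p = 0.00171). It kept that call in all 19 alternatives.

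The next pair kept its calls with shock in inhibitor mice under every alternative tried. At 24415 bp downstream (chr18:34884068-34887177) the levels were 12.0, 11.7 and 9.91 CPM in HDACi-CFC libraries, 6.74, 5.56 and 4.83 in HDACi-Context libraries, 9.25, 6.89 and 6.94 in Veh-CFC libraries and 6.79, 7.95 and 7.28 in Veh-Context libraries. At 27350 bp (chr18:34887645-34889469) they were 6.88, 6.86 and 6.30 CPM in HDACi-CFC libraries, 4.73, 4.41 and 2.38 in HDACi-Context libraries, 5.65, 5.30 and 4.81 in Veh-CFC libraries and 3.73, 3.53 and 4.12 in Veh-Context libraries. In inhibitor mice the CFC libraries lay above the Context libraries at both, by 0.97 ± 0.16 (adjusted p = 8.41e-06) and 0.79 ± 0.20 (adjusted p = 0.00145). With vehicle the changes were 0.08 ± 0.18 and 0.46 ± 0.22, and neither was called. Among 27 peaks of the neighbouring genes within 100 kb, 7 were called higher and 1 lower with shock in inhibitor mice, and their median change was -0.12. In vehicle mice 3 were called higher and 0 lower, with a median of 0.19.

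Egr2, on chromosome 10, had 1 of its 2 start-site peaks called higher with shock over both drug states and 2 of its 3 distal peaks called lower. In that comparison 48.4% of all start-site peaks were called higher and 22.5% of all other peaks lower. The peak over the start (chr10:67537799-67538375, in the 5′ UTR) is measured in the table from a start 61 bp downstream of that used for the other Egr2 peaks, with its centre 157 bp beyond it. It held 2.46, 1.77 and 2.27 CPM in HDACi-CFC libraries, 1.11, 1.04 and 1.56 in HDACi-Context libraries, 1.67, 1.17 and 1.27 in Veh-CFC libraries and 1.04, 0.736 and 0.882 in Veh-Context libraries. CFC and Context libraries did not overlap within either drug state. The change was 0.82 ± 0.32 with the inhibitor (adjusted p = 0.0388) and 0.70 ± 0.26 over both (adjusted p = 0.0272). The first call was lost with library totals, loess offsets and DESeq2 and without HDACi-CFC replicate 1 or 3 or HDACi-Context replicate 1 or 2 (adjusted p between 0.0771 and 0.151). That over both was lost with loess offsets and DESeq2 and without HDACi-CFC replicate 1, HDACi-Context replicate 2 or Veh-CFC replicate 1, with adjusted p between 0.0512 and 0.0866.

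The second start-site peak of Egr2 (chr10:67536327-67537450, centred 981 bp upstream) held 3.12, 2.91 and 2.10 CPM in HDACi-CFC libraries, 1.60, 1.51 and 2.04 in HDACi-Context libraries, 1.67, 2.12 and 0.566 in Veh-CFC libraries and 0.821, 0.589 and 1.47 in Veh-Context libraries. HDACi-Context libraries lay above Veh-Context libraries, and HDACi-CFC and Veh-CFC libraries overlapped by a narrow margin. Its change with shock was 0.66 ± 0.31 with the inhibitor (adjusted p = 0.0818), 0.56 ± 0.41 with vehicle (adjusted p = 0.42) and 0.61 ± 0.26 over both (adjusted p = 0.0511), and it was not called. Of the 7 start-site peaks it was the only one called higher with the drug over both behavioural states, by 0.79 ± 0.25 (adjusted p = 0.0354), where 2.42% of all start-site peaks were called higher. The call was lost without any of 6 single libraries, HDACi-CFC replicates 1 and 2, HDACi-Context replicate 3, Veh-CFC replicate 3 and Veh-Context replicates 1 and 2, with adjusted p between 0.0719 and 0.107.

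A pair of distal Egr2 peaks was called lower with shock. The peak 54836 bp upstream (chr10:67481633-67484434) held 10.5, 9.57 and 8.06 CPM in HDACi-CFC libraries, 11.3, 10.8 and 14.1 in HDACi-Context libraries, 7.71, 6.79 and 9.63 in Veh-CFC libraries and 11.3, 12.9 and 12.0 in Veh-Context libraries, with all 6 CFC libraries below all 6 Context libraries. Its change was -0.59 ± 0.17 with vehicle (adjusted p = 0.0258) and -0.47 ± 0.11 over both (adjusted p = 0.000807). The vehicle call was lost without Veh-CFC replicate 1 or 2 or any 1 of the 3 Veh-Context libraries (adjusted p between 0.065 and 0.133). At 50339 bp upstream (chr10:67486850-67488210) the levels were 3.40, 3.22 and 1.51 CPM in HDACi-CFC libraries, 4.66, 3.59 and 5.58 in HDACi-Context libraries, 3.98, 2.97 and 2.12 in Veh-CFC libraries and 3.51, 4.27 and 2.94 in Veh-Context libraries. HDACi-CFC lay below HDACi-Context with a change of -0.75 ± 0.24 (adjusted p = 0.0136), lost without HDACi-CFC replicate 3 (adjusted p = 0.165) or HDACi-Context replicate 3 (adjusted p = 0.0924), and the vehicle groups overlapped. Over both drug states the change at this peak was -0.47 (adjusted p = 0.0371), a call kept in 11 of 19 alternatives. The third distal peak, 98237 bp upstream (chr10:67439184-67440080), was called in none of the 7 comparisons, with a change with shock of -0.49 ± 0.32 with the inhibitor (adjusted p = 0.22). Among 4 peaks of the neighbouring genes 4930563J15Rik and Ado within 100 kb, 1 was called higher and 0 lower with shock in inhibitor mice and 0 higher and 1 lower in vehicle mice.

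Egr4, on the minus strand of chromosome 6, was the family member whose start-site peak was called lower with shock, in inhibitor mice and over both drug states. Its start site lay in a gap of 2473 bp between peaks named for Egr4, and peaks named for other genes were not looked for in that gap. The nearest one (chr6:85513870-85514396, centred 544 bp upstream) held 16, 10 and 10 reads in HDACi-CFC libraries, 26, 36 and 35 in HDACi-Context libraries, 10, 20 and 13 in Veh-CFC libraries and 28, 15 and 33 in Veh-Context libraries. The scaled levels were 1.16, 1.04 and 0.840 CPM in HDACi-CFC libraries, 1.81, 2.09 and 2.38 in HDACi-Context libraries, 1.284, 2.12 and 1.84 in Veh-CFC libraries and 2.09, 2.21 and 2.43 in Veh-Context libraries. The 3 HDACi-CFC libraries were the lowest of the 12, and Veh-CFC and Veh-Context libraries overlapped. The change was -1.03 ± 0.32 with the inhibitor (adjusted p = 0.00887), -0.35 ± 0.32 with vehicle (adjusted p = 0.535) and -0.69 ± 0.22 over both (adjusted p = 0.0121). Of start-site peaks of all genes, 3.27% were called lower and 48.4% higher with shock over both. The peak 9703 bp upstream (chr6:85522665-85523919) held 4.35, 4.68 and 5.21 CPM in HDACi-CFC libraries, 4.45, 2.67 and 2.79 in HDACi-Context libraries, 3.98, 4.67 and 3.26 in Veh-CFC libraries and 4.03, 2.80 and 3.31 in Veh-Context libraries. Its HDACi-CFC and HDACi-Context libraries overlapped, and its call with shock (0.53 ± 0.22; adjusted p = 0.0472) was lost with library totals and DESeq2 and without any 1 of 6 libraries, namely each HDACi-CFC library, HDACi-Context replicate 2 or 3 or Veh-CFC replicate 2 (adjusted p between 0.051 and 0.226). No Egr4 peak was called in vehicle mice. Among 20 peaks of Alms1, Fbxo41, Pradc1 and Smyd5 within 100 kb, 8 were called higher and 0 lower with shock in inhibitor mice. Their median change was 0.39 and their highest 4.08. In vehicle mice 5 were called higher and 0 lower, with a median of 0.21 and a highest of 2.21, so gains with shock were present beside Egr4.

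Comparisons of the inhibitor with vehicle called 2 to 4 of the 37 EGR peaks, a share near that over all peaks in Context mice and over both behavioural states. Between HDACi-CFC and Veh-CFC 2 of 37 were called, both higher and both the widest peak of their gene, at Egr1 and at Egr3, where 0.918% of all peaks were called. Between HDACi-Context and Veh-Context 3 were called, 1 higher and 2 lower, where 8.58% of all peaks were called (2.73% higher and 5.85% lower). Averaged over both behavioural states 4 were called, 3 higher and 1 lower, where 9.33% were called (3.52% higher and 5.81% lower). Values of drug and vehicle libraries did not overlap at 11 EGR peaks in CFC mice (17.1% of all peaks) and at 8 in Context mice (25.9%). The count in CFC mice was 1 without HDACi-CFC replicate 1 or HDACi-Context replicate 2, 0 without HDACi-CFC replicate 2 or 3 or Veh-CFC replicate 2 or 3, and 5 without Veh-CFC replicate 1. Calls over all peaks, 1322 with every library kept, numbered 225 to 959 where the EGR count was 0 or 1 and 2610 where it was 5. In Context mice the EGR count was 0 without HDACi-Context replicate 2 or Veh-Context replicate 3 and 1 without HDACi-Context replicate 3 or Veh-Context replicate 2. Those 4 fits called 4630 to 9182 of all peaks, against 12357 with every library kept. Over both the EGR count was 1 without HDACi-CFC replicate 2 or Veh-Context replicate 1 or 2, and 2 without HDACi-CFC replicate 1 or 3, HDACi-Context replicate 2, Veh-CFC replicate 2 or 3 or Veh-Context replicate 3. These fits called 9316 to 13463 of all peaks, against 13437 with every library kept.

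The interaction asks whether the shock effect with the inhibitor differed from that with vehicle. EdgeR's quasi-likelihood test called 0 of the 37 peaks, where 0.0347% of all peaks were called. Of the 37, 10 had an unadjusted p under 0.05 in that test, all of them with a positive difference. The share of all peaks under that unadjusted p is not given here. DESeq2 called 2 of the 37 and 995 of all peaks, with no adjusted p for others of the 37. The count was 4 without HDACi-Context replicate 1, 6 without Veh-CFC replicate 1 and 2 without Veh-Context replicate 1, all positive. Calls over all peaks rose as well, to 3731, 2588 and 874 in those fits, against 50 with every library kept. The larger number of shock calls with the inhibitor than with vehicle is therefore not shown to be a difference at single EGR peaks. The 22 calls with the inhibitor ran between 15 and 24 when 1 library was left out. Calls over all peaks in those fits are not given here, so this range is not set against them. The 5 calls with vehicle became 1 without Veh-CFC replicate 1 or Veh-Context replicate 1 and 3 without Veh-CFC replicate 2. Calls with vehicle over all peaks fell as well, to 1453, 1895 and 6700 in those fits, against 10300 with every library kept.

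Summed over all its peaks, each gene gave 1 level per library. Egr3, with 21 peaks, held 184.3 ± 7.83 CPM in HDACi-CFC, 140.9 ± 8.997 in HDACi-Context, 145.7 ± 7.35 in Veh-CFC and 136.6 ± 7.18 in Veh-Context libraries (SD, n = 3 each). Egr1 held 113.0 ± 5.32, 69.1 ± 10.7, 80.1 ± 12.7 and 68.3 ± 4.94 CPM in the same groups. For both genes HDACi-CFC stood above the other groups, whose SD ranges overlapped. Egr4 held 39.98 ± 3.10 CPM in HDACi-CFC, 42.6 ± 0.512 in HDACi-Context, 34.2 ± 3.85 in Veh-CFC and 37.7 ± 0.816 in Veh-Context libraries. Egr2 was lowest with 17.8 ± 3.15, 23.8 ± 4.18, 14.6 ± 1.20 and 19.3 ± 0.881 CPM in that order of groups. These sums rise with the number and width of the peaks, so they do not rank the genes.

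In the test on sums, where 56.1% of 18806 genes were called, shock in inhibitor mice changed Egr1 by 0.71 ± 0.11 (adjusted p = 9.22e-05), Egr3 by 0.39 ± 0.08 (adjusted p = 0.000455) and Egr2 by -0.41 ± 0.14 (adjusted p = 0.0172). Without HDACi-CFC replicate 3 or HDACi-Context replicate 3 the Egr2 call was lost (adjusted p = 0.113 and 0.136), and over its peaks within 50 kb alone the change was 0.48 (adjusted p = 0.0765). In vehicle mice edgeR called 0 of the 4 sums with shock, where 22.9% of genes were called. Between HDACi-Context and Veh-Context it also called 0, where 20.3% of genes were called. In both comparisons 1 sum, that of Egr2, had an unadjusted p under 0.05 (0.0178 and 0.0387). Egr1 and Egr3 were called higher with the drug in CFC mice, by 0.49 ± 0.12 (adjusted p = 0.0393) and 0.34 ± 0.08 (adjusted p = 0.0373), where 1.92% of genes were called either way. Over both behavioural states all 4 sums were called higher with the drug, by 0.26 ± 0.08 for Egr1, 0.30 ± 0.10 for Egr2, 0.19 ± 0.05 for Egr3 and 0.20 ± 0.07 for Egr4, where 10.6% of genes were called higher. All 6 drug calls on sums were lost with library totals in place of the TMM factors, with adjusted p between 0.0644 and 0.16. Each was also lost without 2 or more of the 12 single libraries. No sum had a called interaction, nor did any of the 18806 genes in edgeR.

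**Figure D4:**
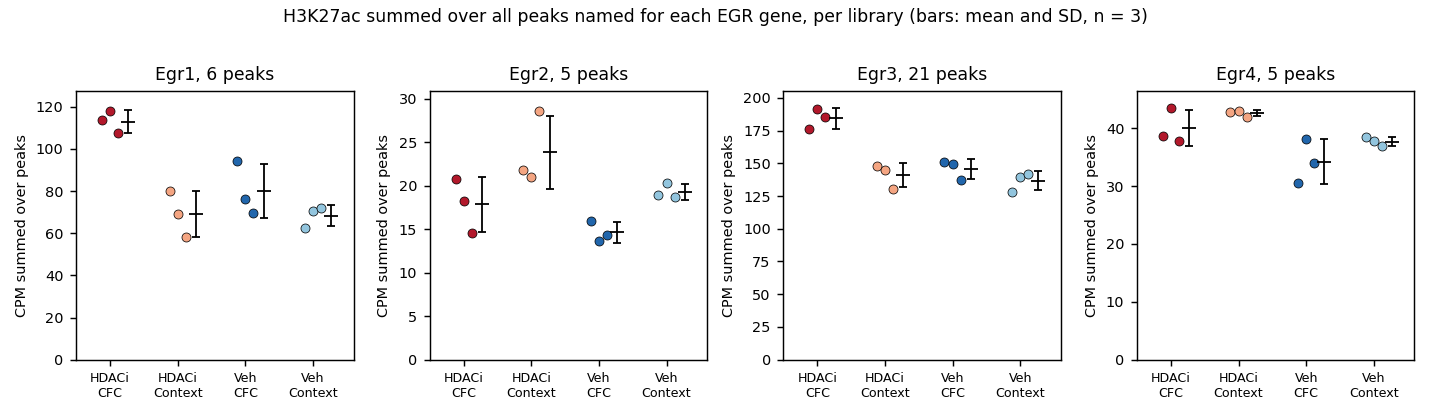
H3K27ac in CPM summed over all peaks named for each EGR gene (vertical axes, from 0), with 1 point per library in 4 groups of 3 and bars for mean and SD. The HDACi-CFC points of Egr1 and Egr3 lie above those of the other groups, and the 6 CFC points of Egr2, at 13.6 to 20.8 CPM, lie mostly below its Context points, at 18.6 to 28.6 CPM.

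Where the reads of a gene fell also moved. The share in start-site peaks of all genes was itself higher in CFC than in Context libraries, as given above. Whether the EGR shares moved beyond that was not tested. The share of Egr2 reads in its start-site peaks was 26.8% ± 2.23 in HDACi-CFC, 13.6% ± 0.346 in HDACi-Context, 18.3% ± 5.40 in Veh-CFC and 9.66% ± 2.95 in Veh-Context libraries (SD, n = 3 each). It was higher in CFC than in Context by 10.9 percentage points (two-sided exact permutation test within drug state, p = 0.01, adjusted p = 0.02 over 8 tests) and higher with the drug by 6.21 points (exact p = 0.005, adjusted p = 0.02), where 0.005 is the smallest p that 400 assignments allow. The drug difference had an adjusted p of 0.05 without HDACi-CFC replicate 3. For Egr3 the share was 4.09% ± 0.585, 1.69% ± 0.0515, 3.89% ± 1.62 and 2.19% ± 0.701 in the same groups, higher in CFC by 2.05 points (exact p = 0.01, adjusted p = 0.02). The Egr3 share leaves out its exon 2 peak and the peak 1969 bp upstream, whose edges lay more than 1000 bp from the start.

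Egr4 went the opposite way. Its share was 2.47% ± 0.409 in HDACi-CFC, 5.41% ± 0.862 in HDACi-Context, 4.81% ± 0.758 in Veh-CFC and 5.95% ± 0.512 in Veh-Context libraries, lower in CFC by 2.04 points (exact p = 0.005, adjusted p = 0.02). With the drug it was lower by 1.44 points (exact p = 0.02, adjusted p = 0.032), a call lost without any 1 of the HDACi-CFC libraries, HDACi-Context replicate 1 or 2 or Veh-Context replicate 3, with adjusted p between 0.0533 and 0.0667. Egr1 kept 76.6% to 80.7% of its reads in start-site peaks in all 12 libraries, most of them in its 13713 bp upstream peak, whose edge lay 696 bp from the start, and neither factor was called for it with this window of 1000 bp.

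**Figure D5:**
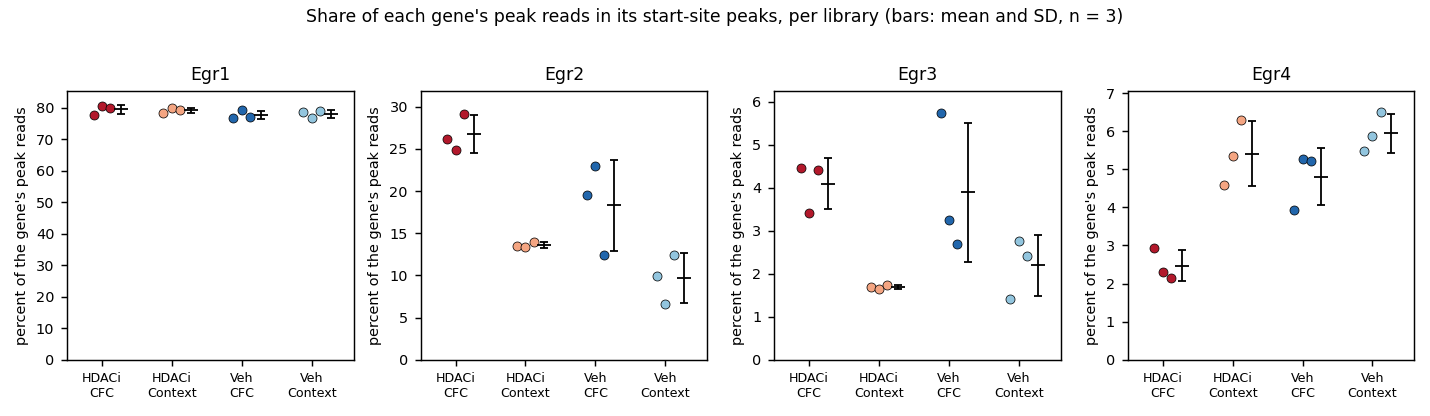
Share of each EGR gene's peak reads that fell in its start-site peaks (vertical axes, percent, from 0), with 1 point per library in 4 groups of 3 and bars for mean and SD. The shares of Egr2 and Egr3 are on average higher in CFC than in Context libraries in both drug states, that of Egr4 is lowest in HDACi-CFC libraries at 2.47% on average, and that of Egr1 is near 80% in every group.

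The partners of the family were read at 1 start-site peak per gene, the one with the highest mean level, among 14154 genes. Both corepressors rose with shock in inhibitor mice, Nab2 by 1.94 ± 0.16 (adjusted p = 3.09e-10) and Nab1 by 0.47 ± 0.15 (adjusted p = 0.00988), where 49.1% of genes were called higher. Nab2 also rose in vehicle mice, by 0.85 ± 0.16 (adjusted p = 0.00238), where 16.5% were called higher. With the drug in Context mice Nab2 was lower by -0.70 ± 0.16 (adjusted p = 0.00515), where 24.4% were called lower.

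Of 26 measured genes of the signalling route to EGR transcription, 17 were called higher and 0 lower with shock in inhibitor mice, where 49.1% of all genes were called higher and 2.06% lower, with a median change of 0.60 against 0.44 over all genes. They include Mef2d, an activity-regulated transcription factor (1.32 ± 0.12), the MAP kinase phosphatases Dusp4 (1.07 ± 0.12) and Dusp1 (0.78 ± 0.12), and Mapk3, which encodes ERK1 (1.54 ± 0.16). In vehicle mice 3 were called higher, Mef2d, Dusp4 and the ERK-activated kinase gene Rps6ka1, and 0 lower, where 16.5% of all genes were called higher and 0.487% lower. With the drug in Context mice 6 were called lower and 1 higher, where 24.4% of all genes were called lower and 1.03% higher. Both the 3 and the 6 are shares of the list at or below those over all genes. Among the 6 were Mapk3 (-0.88 ± 0.17), the ERK kinase gene Map2k2 (-0.89 ± 0.21) and Srf, which encodes serum response factor (-0.96 ± 0.24, adjusted p = 0.0077). The median of the list was -0.24 there, against -0.31 over all genes.

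Of 23 other immediate early genes, 19 were called higher and 0 lower with shock in inhibitor mice, with a median of 0.84 against 0.44 over all genes, of which 49.1% were called higher. In vehicle mice 7 were called higher and 0 lower, with a median of 0.43 against 0.26 over all genes, of which 16.5% were called higher. Over both drug states 19 were called higher and 1 lower, the neurotrophin gene Bdnf (-0.26 ± 0.08, adjusted p = 0.0117; named after its value was seen). The nuclear receptor gene Nr4a2 changed by 3.15 ± 0.25 with the inhibitor and 1.21 ± 0.24 with vehicle, and it was the 1 gene of this list with a called interaction (1.95 ± 0.37, adjusted p = 0.0368), where 0.17% of genes were called. The clock gene Per1 changed by 1.40 ± 0.12 and 0.64 ± 0.12, and the AP-1 gene Junb by 1.38 ± 0.16 and 0.54 ± 0.16. With the drug in Context mice 6 were called lower, near the 24.4% of all genes, among them Per1 (-0.99 ± 0.12), Junb (-1.12 ± 0.17), Nr4a2 (-1.62 ± 0.30) and Fosb (-1.74 ± 0.27), and 1 higher, Fos (0.60 ± 0.19; named after its value was seen).

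Of 14 measured genes with reported EGR sites or an EGR response, 11 were called higher and 0 lower with shock in inhibitor mice, where 49.1% of all genes were called higher, with a median of 0.99 against 0.44 over all genes. In vehicle mice 7 were called higher and 0 lower, where 16.5% of all genes were called higher, with a median of 0.52 against 0.26. Apart from Nab2, the 3 with the lowest adjusted p with the inhibitor were Dlg4, which encodes the postsynaptic scaffold PSD-95 (1.02 ± 0.12), Mbp, which encodes myelin basic protein (0.78 ± 0.10), and Cdk5r1, which encodes the Cdk5 activator p35 (1.96 ± 0.17). With the drug in Context mice 4 were called lower, Dlg4, Cdk5r1, Nab2 and Mbp, and 0 higher, a share near the 24.4% of all genes called lower. Nab2 and Arc stand in 2 of these lists, and Mbp is also an oligodendrocyte marker, whose sum moved with shock as given above. No test compared a list with other genes.

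Genes whose start-site level followed that of an EGR gene most closely over the 12 libraries were found by Pearson's r of log2 CPM among 14153 other genes. For Egr1, read at its upstream peak, they were Rprml (r = 0.993, Spearman's rho = 0.993), Neurod2 (0.984), Mir3080 (0.975), Arhgef25 (0.972) and Fndc5 (0.972). For Egr3, read 1011 bp upstream, they were Lrp8os2 (0.973), Nfic (0.972), Tbkbp1 (0.972), Epas1 (0.971) and Comtd1 (0.968). For Egr2, read 981 bp upstream, r was lower, with Tex26 (0.902), 2510039O18Rik (0.897), Galnt15 (0.896), Prlhr (0.895) and Tmem200a (0.882). For Egr4 they were Cnot10 (0.972), Gins1 (0.968), Cep295 (0.906), Abcd4 (0.891) and Calhm5 (0.890). Within the family, r was 0.912 between Egr1 and Egr3, 0.614 between Egr1 and Egr2 and -0.912 between Egr1 and Egr4. By likeness to Egr1 these stood at places 257, 4722 and 14151 among the 14153 genes, so many genes outside the family followed Egr1 more closely. All these values come from the same 12 libraries and 4 groups, so they describe shared group differences as well as shared spread, and they carry no p.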

How the data were processed

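H3K27ac ChIP-seq was analysed for 12 libraries in 4 groups of 3. The authors deposited raw read counts per peak for mm10. Per the submitters' processing notes, which give no roles, HOMER 4.11, DiffBind 2.16.2, MACS2, DESeq2 1.28.1, Bowtie2 2.3.5, Trimmomatic 0.38 and SAMtools 1.9 were used. Gene names, distances and chromatin states were taken from the deposited table. Its column headings name the group and replicate. The 12 input samples were not analysed here. No value is under 1, and 3620 cells hold 1. The series text gives other numbers of treatments and replicates than the labels do.

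Counts were fitted with edgeR 4.0.16 (R 4.3.3; TMM factors, 1 term per group, quasi-likelihood F test with robust dispersion). The filter (minimum count 10) kept 144014 of 144154 peaks. P-values were adjusted by Benjamini-Hochberg over all peaks, with a threshold of 0.05. CPM uses TMM-adjusted totals, and SE is the log2 change divided by the square root of F. Totals per library were 6639158 to 16734757 counts, and the median biological coefficient of variation was 0.131. Gene sums were tested in the same way over 18806 genes. Shares of reads in start-site peaks were tested by a two-sided exact permutation test within the other factor (400 assignments, 8 tests). Scripts were tested on simulated data. Replicates of 1 group differed by more than sampling noise in every pair.

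Members, lists of partner genes and cell type markers were chosen with earlier results of these data known. Peaks named with all values were the start-site peaks and those called in any comparison, at most 8 others per gene. Likeness used the 5 highest r, and lists at most 4 genes per comparison, lowest adjusted p first. Alternatives were library totals, RLE factors, loess offsets, DESeq2 1.42.0, no filter, fits of the compared groups alone, other windows, a replicate block, leaving out each library and, chosen after seeing the data, values of 1 set to 0. Promoter sequences are from RefSeq (GRCm38.p6).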

Additional observations from a re-analysis of the deposited data

How the results depend on the processing

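Some calls at named EGR peaks were kept under every alternative that gave an adjusted p. They were 16 of 19 with shock over both, 12 of 20 with shock in inhibitor mice and 1 of 5 with shock in vehicle mice (Egr3, exon 2). For the drug they were 0 of 2 in CFC mice, 0 of 2 in Context mice and 0 of 3 over both. DESeq2 gave no adjusted p for the Egr3 exon 2 peak with shock in vehicle mice (unadjusted p = 1.26e-08). No named value reversed. Calls with the drug in CFC mice numbered 1 with loess offsets, where 1706 of all peaks were called. With DESeq2 there were 1 with the drug in Context mice, 2 with the drug over both, 2 with shock in vehicle mice and 2 for the interaction. Over all peaks DESeq2 called 8967, 10263, 6032 and 995 in those comparisons. It gave no adjusted p for 104 pairs of an EGR peak and a comparison, and these are counted as not called. Leaving out 1 library gave 0 to 5 calls with the drug in CFC mice, 0 to 4 with it in Context mice and 1 to 4 averaged over these, 1 to 6 with shock in vehicle mice and 0 to 6 for the interaction. Calls over all peaks moved in such fits too, as given above. Library totals shifted the median of all peaks with shock in inhibitor mice by -0.128.

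Among the log2 changes of gene sums with the drug in CFC mice, Egr1 was 0.43 with library totals and 0.43 with loess offsets, and Egr3 was 0.27, 0.26 and, within 50 kb, 0.26, all no longer called. Over both, library totals gave 0.18 for Egr1, 0.23 for Egr2, 0.12 for Egr3 and 0.13 for Egr4, and loess offsets 0.19 for Egr1, 0.11 for Egr3 and 0.17 for Egr4, none called. Peaks within 50 kb alone gave called values of 0.77 for Egr2 with the drug in Context mice, 0.51 for Egr3 with shock in vehicle mice and -0.17 for Egr4 with shock over both. They turned Egr2 positive with shock, to 0.48 in inhibitor mice (adjusted p = 0.0765) and 0.47 over both (adjusted p = 0.036), since its losing peaks lie farther out. Loess offsets gave a called -0.44 for Egr2 with shock in vehicle mice. The narrower start window, which drops the wide Egr1 peak, made the Egr1 share 4.49 points higher with shock. The other causes were not tested.

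Without 1 library, the sums with the drug in CFC mice were 0.40 to 0.62 for Egr1 and 0.30 to 0.37 for Egr3. Over both they were 0.20 to 0.32 for Egr1, 0.22 to 0.36 for Egr2, 0.16 to 0.21 for Egr3 and 0.15 to 0.24 for Egr4. Egr2 with shock was -0.54 to -0.25 in inhibitor mice and -0.45 to -0.34 in vehicle mice, and the Egr1 interaction was 0.37 to 0.62. The shares with the drug were 4.74 to 7.38 points for Egr2 and -1.67 to -1.24 for Egr4.

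Replicate numbers did not pair the libraries (correlation of same-numbered deviations -0.28 to 0.351, over 0.1 in 2 of 18 pairs). With a replicate block, drug calls numbered 2 in CFC mice, 3 in Context mice and 4 averaged over these, shock calls 20 in inhibitor mice, 5 in vehicle mice and 20 over both, and interaction calls 0. Over all peaks the block gave 1436, 12310 and 13442 drug calls, 53651, 10898 and 58697 shock calls and 89 interaction calls, in the same order. The Egr2 peak over the start with shock in inhibitor mice (adjusted p = 0.0502) and the Egr2 sum with the drug over both (0.30, adjusted p = 0.052) were not called with the block. At the smallest peaks, depth limits what can be seen: the Egr3 peak of 255 bp held 1 to 20 reads a library.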
